A study of Danio rerio with 6 samples.

Results

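The genes described here are *rbl2*, its relatives *rbl1* and *rb1* in the retinoblastoma family, and the E2F transcription factor genes *e2f1*, *e2f3*, *e2f4*, *e2f5*, *e2f6*, *e2f7* and *e2f8*, 10 of the 21769 genes in the larger deposited table. They were chosen by name around *rbl2*, which was itself selected on its strong rise in the mutant libraries, so the values of *rbl2* are given as a description without a test. Of the 10 genes, 9 carried these symbols in the table. *e2f6* stood there under a clone-based placeholder symbol and was found through its Ensembl ID, ENSDARG00000008119. RNA was sequenced from zebrafish embryos of strain AB at 36 hours post fertilization (hpf), in 3 libraries of WT siblings and 3 libraries labelled dhx38-- or dhx38-/-. *dhx38* encodes an RNA helicase of the spliceosome, and the labels do not describe the mutant allele. The tissue is labelled as tail, and the protocol names the trunk.

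Retinoblastoma family proteins, also called pocket proteins, bind E2F factors and hold back genes needed for S phase and mitosis. Cyclin-dependent kinases (CDKs) phosphorylate the pocket proteins and release E2F. In mammals the RB protein binds mainly the activator E2F factors, while the p107 and p130 proteins, encoded by *RBL1* and *RBL2*, bind E2F4 and E2F5. p130 is typical of cells that have left the cycle, where it joins E2F4 or E2F5, a DP partner and the MuvB proteins in the DREAM complex, a repressor of cell cycle genes.

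Values are read counts scaled to library size (normalized normalized CPM) as deposited. Depth estimated from the smallest steps between values was 19.5 to 37.7 M reads per library, with replicate 3 of both groups the shallower. The targeted gene *dhx38* (chromosome 7) stood at 33.77, 33.77 and 27.26 normalized CPM in sibling replicates 1, 2 and 3 and at 57.24, 90.38 and 53.11 in mutant replicates 1, 2 and 3. Its transcript was thus higher in each mutant library and does not check the genotype. Posterior genes such as *hoxc13a* (7.24 to 17.27 normalized CPM) were present in all 6 libraries, but so was the forebrain gene *foxg1a* (15.64 to 31.35), so the libraries held more than tail or trunk.

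*rbl2* (ENSDARG00000045636, chromosome 25, minus strand), the gene of the p130 protein, stood at 10.33, 8.81 and 9.03 normalized CPM in sibling replicates 1, 2 and 3. In mutant replicates 1, 2 and 3 it stood at 111.53, 190.05 and 76.22. The groups lay far apart, since the lowest mutant library was 7.38 times the highest sibling library. Siblings varied little among themselves, by 1.17 times from lowest to highest, while the mutant libraries varied by 2.49 times, with replicate 2 the highest and replicate 3 the lowest. The mean went from 9.39 ± 0.821 to 126 ± 58.3 (SD, n = 3 per group), 13.4 times the sibling mean. On the log2(value + 1) scale used for all fold changes here, the difference was 3.51. Within same-number pairs of libraries it was 3.31, 4.28 and 2.94 in pairs 1, 2 and 3. That placed *rbl2* at rank 2 of 21769 genes by log2 fold change, behind a locus with a placeholder symbol.

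**Figure D1:**
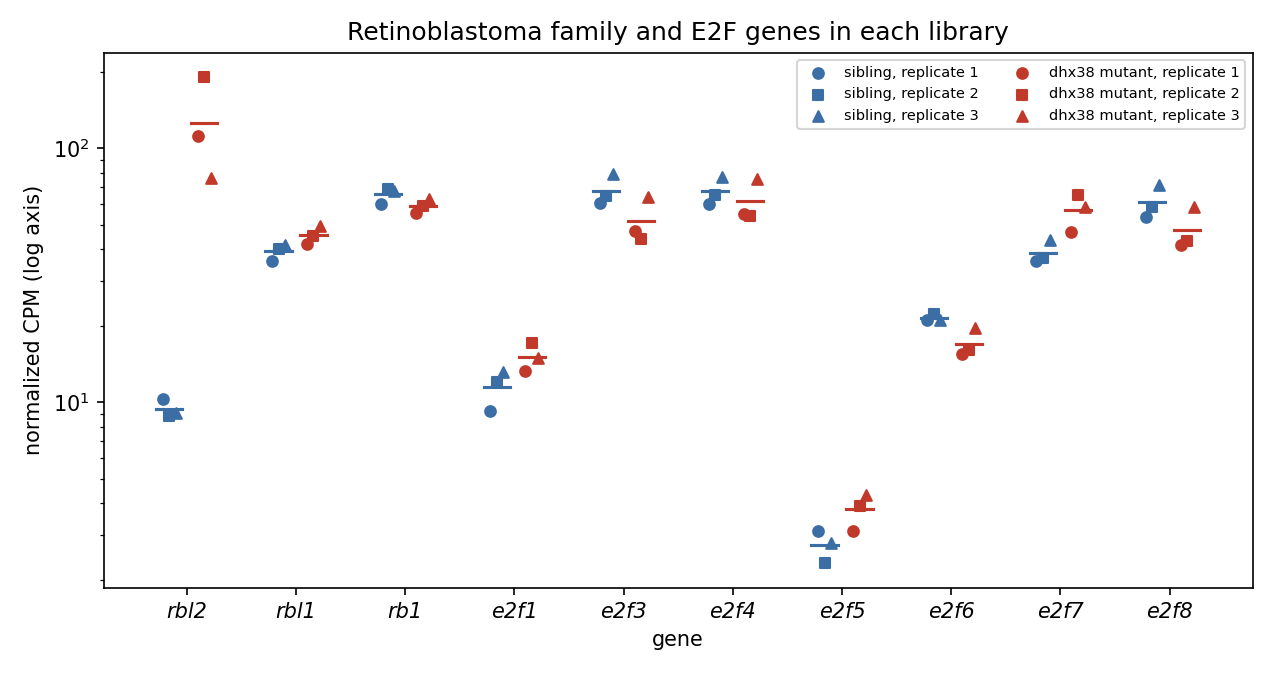
Normalized CPM (log axis) of the 10 genes in each of the 6 libraries, blue for siblings and red for mutants, with the marker shape giving the replicate number and the bar the group mean. *rbl2* lies at 8.81 to 10.33 in siblings and 76.22 to 190.05 in mutants, while the groups of the other genes lie close together or overlap.

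The other pocket protein genes moved little. *rbl1* (chromosome 6), the gene of the p107 protein, stood at 35.87, 40.23 and 41.48 normalized CPM in sibling replicates 1, 2 and 3. It stood at 41.89, 45.17 and 49.39 in the mutant replicates. The lowest mutant library lay just above the highest sibling library, and the log2 fold change was 0.21 (SE 0.14, 95% interval -0.11 to 0.53), which did not pass (limma, Benjamini-Hochberg adjusted p = 0.434). *rb1* (chromosome 21), the gene of the RB protein, stood at 60.31, 69.19 and 67.8 in the siblings and 55.52, 59.15 and 63.05 in the mutants. Its groups overlapped, and its log2 fold change was -0.15 (SE 0.14, 95% interval -0.46 to 0.16, limma adjusted p = 0.580).

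The ratio between pocket protein transcripts therefore shifted. *rbl2* over *rbl1* was 0.288, 0.219 and 0.218 in sibling replicates 1, 2 and 3 and 2.66, 4.21 and 1.54 in the mutant replicates, an 11.6-fold difference between group means. *rbl1* over *rb1* went from between 0.581 and 0.612 to between 0.755 and 0.783, a 1.29-fold difference. These ratios are of values not divided by transcript length, so their change can be read but not which transcript was the more abundant. For the same reason no order of levels between the 10 genes is given.

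The activator E2F genes, which drive entry into S phase, did not share the size of the rise. *e2f1* (chromosome 23) stood at 9.21, 12 and 13.19 normalized CPM in the siblings and 13.25, 17.06 and 14.97 in the mutants. The groups touched without overlapping, and the log2 fold change of 0.38 (SE 0.17, 95% interval -0.02 to 0.77) did not pass (limma adjusted p = 0.262). *e2f3* (chromosome 19) stood at 60.54, 64.95 and 78.81 in the siblings and 47.32, 43.69 and 64.09 in the mutants. It was lower in each same-number pair although the groups overlapped, with a log2 fold change of -0.40 (SE 0.19, 95% interval -0.83 to 0.03, limma adjusted p = 0.266).

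The E2F genes whose mammalian products are the partners of p130 differed from each other in sign. *e2f4*, on chromosome 25 like *rbl2*, stood at 60.42, 65.65 and 76.83 normalized CPM in sibling replicates 1, 2 and 3 and at 55.05, 54.22 and 75.73 in the mutant replicates. In each group replicate 3 was the highest, and the groups overlapped widely (log2 fold change -0.14, SE 0.18, 95% interval -0.55 to 0.27, limma adjusted p = 0.702). *e2f5* (chromosome 2) was the lowest of the 10 by deposited value, at 3.11, 2.32 and 2.8 in the siblings and 3.12, 3.9 and 4.32 in the mutants. Replicates 1 of the groups differed by less than the value of 1 read, and the log2 fold change was 0.35 (SE 0.16, 95% interval -0.01 to 0.71, limma adjusted p = 0.253). Its value in sibling replicate 3 came from about 54 reads, the fewest behind any value of the 10 genes.

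*e2f6* (chromosome 20), a repressor that acts without pocket proteins in mammals, stood at 21.04, 22.21 and 20.97 normalized CPM in the siblings and 15.44, 16.03 and 19.51 in the mutants. Every mutant library lay below every sibling library, and the log2 fold change was -0.32 (SE 0.14, 95% interval -0.65 to 0.00, limma adjusted p = 0.245). The atypical repressors *e2f7* and *e2f8*, which bind DNA without a DP partner, differed in sign. *e2f7* (chromosome 4) stood at 35.95, 36.82 and 43.51 in the siblings and 46.94, 65.44 and 58.68 in the mutants, with no overlap. Its log2 fold change of 0.54 (SE 0.17, 95% interval 0.15 to 0.92) was the largest of the 9 relatives and did not pass (limma adjusted p = 0.132). It passed with the replicate number as a block (limma adjusted p = 0.0393), and with the block at a pseudocount of 0.1 it missed the threshold. *e2f8* (chromosome 7) stood at 53.74, 58.46 and 71.59 in the siblings and 41.57, 43.18 and 58.57 in the mutants, lower in each pair (log2 fold change -0.36, SE 0.18, 95% interval -0.78 to 0.06, limma adjusted p = 0.309).

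**Figure D2:**
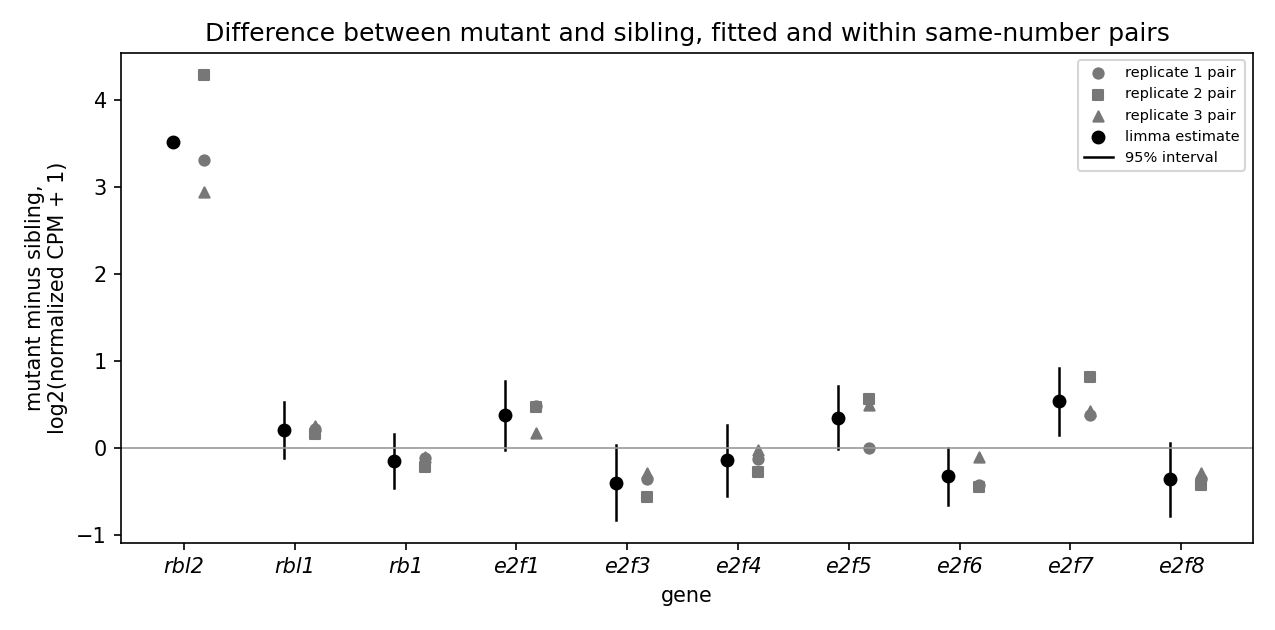
Difference between mutant and sibling in log2(normalized CPM + 1) for the 10 genes. Black points are limma estimates with 95% intervals for the 9 genes other than *rbl2*, and grey markers are the 3 same-number pairs. *rbl2* lies at 3.51, with pairs from 2.94 to 4.28, and the intervals of the other 9 end at or below 0.92.

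The large rise of *rbl2* was therefore not seen in its relatives. Of the other 9 genes, 0 passed without a block, 1 had an unadjusted p under 0.05 (*e2f7*, higher), and 4 had a positive and 5 a negative log2 fold change. Such a p was found for 10.2% of all genes as higher, and 50.8% of all genes had a negative log2 fold change. Over all genes 1.70% passed with limma, 1.41% higher and 0.285% lower in mutants. With the replicate block 1 of the 9 passed, higher in mutants, against 6.85% of all genes called higher with the block. The highest upper end of the 9 intervals was 0.92, for *e2f7*, well under the 3.51 of *rbl2*, and the median log2 fold change of the 9 was -0.14 beside -0.01 for all genes. Groups of 3 did not overlap for 5 of the 9 (*rbl1*, *e2f1*, *e2f5*, *e2f6* and *e2f7*), beside 27.1% of all genes. For *e2f5* and *e2f1* this rests on near ties. The highest sibling and lowest mutant values were 3.11 and 3.12 for *e2f5* and 13.19 and 13.25 for *e2f1*. All 9 had the same sign in the 3 pairs, with pair 1 of *e2f5* nearly at 0, beside 52.7% of all genes.

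Some of these genes also varied with the replicate number. *rbl1*, *e2f3*, *e2f4* and *e2f8*, 4 of the 10, were highest in replicate 3 of both groups, as were 22.9% of all genes. For *e2f4* the step from sibling replicate 1 to sibling replicate 3, from 60.42 to 76.83 normalized CPM, was larger than the step between group means, from 67.6 to 61.7. Replicate 3 was also the shallower library of each group, and the part of depth in this was not tested.

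Genes beside *rbl2* that could be matched by symbol did not rise with it. Gene order on chromosome 25 came from the RefSeq annotation of assembly GRCz12tu, among genes whose symbol was also a deposited symbol. The 3 nearest such genes on one side were *sall1b*, *rpgrip1l* and *mphosph6* and on the other *dus2*, *irx3b* and *irx5b*. Measured genes under a placeholder or another symbol were passed over. Their log2 fold changes ran from -0.71 for *rpgrip1l* to 0.16 for *dus2*, and limma called 0 of the 6. At an unadjusted p under 0.05, 3 of the 6 were lower, beside 10.7% of all genes. Under the replicate block *rpgrip1l* and *irx5b* fell (limma adjusted p = 0.0288 and 0.0221), as did 6.87% of all genes, and 0 rose. With the block at a pseudocount of 0.1, 0 of the 6 passed. *dus2* stood at 21.73, 25.72 and 23.57 normalized CPM in the siblings and 24.34, 28.23 and 27.27 in the mutants. *sall1b* stood at 1.12, 1.51 and 1.14 and at 0.85, 2.2 and 0.71. In the deposited table *rbl2* is on another chromosome than *dhx38*, which shares chromosome 7 with *e2f8*.

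Among genes with a mean of at least 1 and no placeholder symbol, *bbc3*, *ice1*, *snapc4* and *brf2* had the profiles over the 6 libraries nearest to that of *rbl2*. A placeholder locus that lay nearer was passed over. Nearness was the Euclidean distance of log2(value + 1) after taking off each gene's sibling mean, so these genes were picked for their difference and have no test here. *bbc3*, a pro-apoptotic gene of the BCL2 family, was at a distance of 1.19 over the 6 libraries. It stood at 3.91, 2.49 and 2.65 normalized CPM in the siblings and 23.91, 44.08 and 19.89 in the mutants. Like *rbl2* it was highest in mutant replicate 2 and lowest in mutant replicate 3.

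*ice1* and *snapc4*, both of snRNA gene transcription, were at distances of 1.19 and 1.22, and *brf2*, of RNA polymerase III initiation, at 1.27. *ice1* stood at 117.14, 224.26 and 209.38 in mutant replicates 1, 2 and 3, and *snapc4* at 103.48, 191.42 and 195.12. *brf2* stood at 53.45, 110.78 and 94.04. In these 3 genes mutant replicate 1 was the lowest, so the order of mutant libraries differed from that of *rbl2*.

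**Figure D3:**
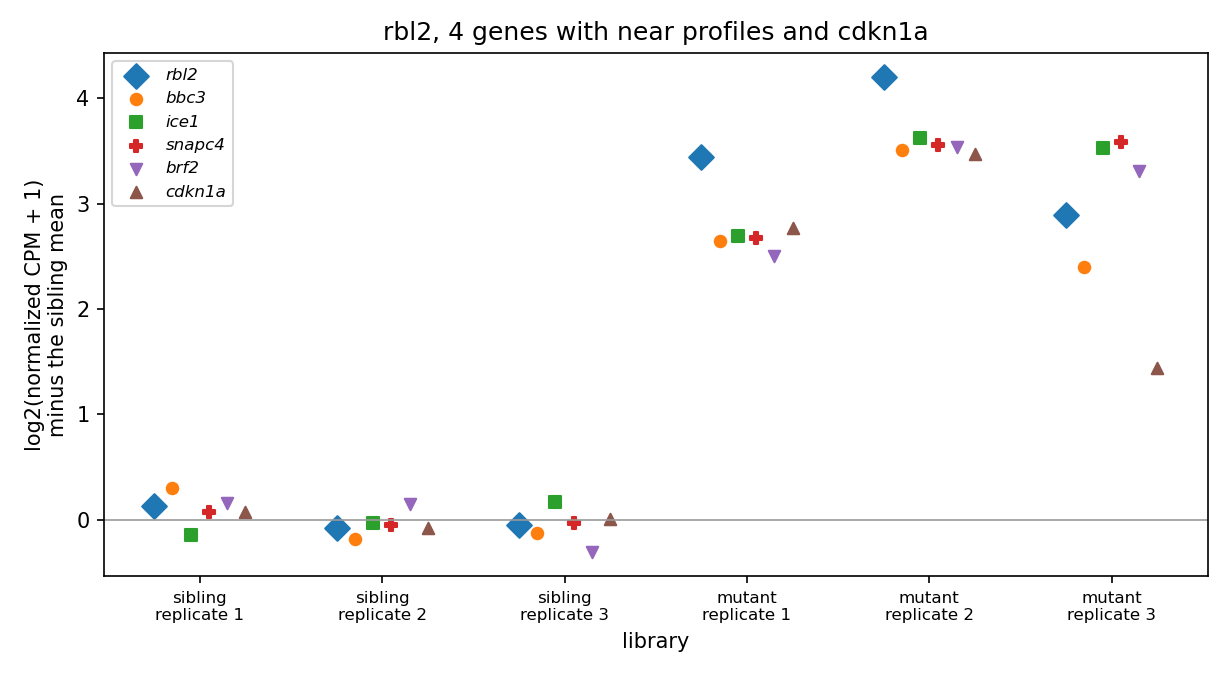
log2(normalized CPM + 1) minus the sibling mean for *rbl2*, 4 genes with near profiles and *cdkn1a* in each library. *rbl2* is above the other 5 genes in mutant replicates 1 and 2. In mutant replicate 3 *ice1*, *snapc4* and *brf2* lie above it and *bbc3* and *cdkn1a* below.

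Other genes of the pathway were read from 7 lists, which together held 126 measured genes. Of these 1 rose and 0 fell with limma, beside 1.41% of all genes called higher and 0.285% called lower. An unadjusted p under 0.05 was found for 41, 8 higher and 33 lower. Over all genes 4546 of 21769 had such a p, 2212 higher (10.2%) and 2334 lower (10.7%). With the replicate block 31 of the 126 were called, beside 13.7% of all genes. Of these 8 rose, beside 6.85% of all genes called higher, and 23 fell, 18.3% of the 126 beside 6.87% of all genes called lower. At a pseudocount of 0.1, 0 of the 126 passed with or without the block. Without mutant replicate 1, 8 passed: *cdkn1a*, *dyrk1ab* and *foxm1* higher and *mybl1*, *lin54*, *top2a*, *orc2* and *cdk4* lower. Fewer cells of a type and less RNA per cell cannot be told apart in such bulk libraries, and this holds for each list.

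CDK inhibitors, which keep the kinases from releasing E2F, held the 1 pathway gene that passed. *cdkn1a*, the gene of p21, stood at 3.37, 2.92 and 3.17 normalized CPM in the siblings and 27.35, 44.99 and 10.27 in the mutants. Its groups lay apart, and its mutant libraries stood in the order of *rbl2*, with replicate 2 highest and replicate 3 lowest. The log2 fold change was 2.56 (SE 0.44, limma adjusted p = 0.0352), and the call was lost with a pseudocount of 0.1 (limma adjusted p = 0.0666). It was also lost without sibling replicate 1, 2 or 3 (limma adjusted p = 0.128, 0.137 and 0.130) and without mutant replicate 2 (0.110). With the block at a pseudocount of 0.1 it was lost too (0.0660). The call was kept with the replicate block (limma adjusted p = 0.00318), a variance trend (0.0255), median centring (0.0308) and a filter at a mean of 1 (0.0391). Leaving out mutant replicate 1 (limma adjusted p = 0.0384) or 3 (0.00522) also kept it. Its log2 fold change ran from 2.11 to 3.12 in these fits. The other 7 inhibitor genes did not pass. At an unadjusted p under 0.05, 3 of them were lower, 37.5% of the list beside 10.7% of all genes. *cdkn1ca*, a p57 gene, went from 91.1 ± 11.6 to 64.6 ± 13.0 (limma adjusted p = 0.184) and *cdkn1bb*, a p27 gene, from 58.5 ± 7.82 to 43.0 ± 5.89 (limma adjusted p = 0.183; SD, n = 3 per group). The list median was -0.35. With the block 3 inhibitor genes fell (37.5%, beside 6.87% of all genes), *cdkn1ca*, *cdkn1d* and *cdkn2d* (the last 2 chosen after their values were seen).

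Transcripts of the DP proteins, which pair with E2F1 to E2F6 to bind DNA, stood lower without passing. *tfdp2* went from 92.9 ± 6.31 to 61.9 ± 9.66 normalized CPM, a log2 fold change of -0.59 (SE 0.16, limma adjusted p = 0.0998), and *tfdp1a* from 79.4 ± 0.802 to 75.2 ± 3.13 (-0.08, limma adjusted p = 0.773). *tfdp1b* (chosen after its values were seen) stood at 46.49, 49.47 and 47.97 in the siblings and 36.72, 34.57 and 32.78 in the mutants (-0.46, limma adjusted p = 0.107). The groups of all 3 genes did not overlap, as for 27.1% of all genes. For *tfdp1a* this rests on a near tie, 78.83 in the lowest sibling library and 78.74 in the highest mutant library. At an unadjusted p under 0.05, 2 of the 3 were lower, beside 10.7% of all genes. With the replicate block *tfdp2* and *tfdp1b* fell (limma adjusted p = 0.0385 and 0.0484), as did 6.87% of all genes.

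The list of MuvB proteins, their MYB and FOXM1 partners and the DYRK kinases that in mammals assemble DREAM held 0 called genes of 12. At an unadjusted p under 0.05, 5 were higher and 2 lower, beside 10.2% and 10.7% of all genes. The median of 0.04 covers opposite signs, with 6 positive and 6 negative log2 fold changes from -0.77 to 0.91. Groups did not overlap for 9 of the 12 (75.0%, beside 27.1% of all genes). *dyrk1aa* stood at 237.77, 211.89 and 150.04 normalized CPM in the siblings and 419.02, 465.11 and 257.03 in the mutants (log2 fold change 0.91, SE 0.26, limma adjusted p = 0.113). Each mutant library was above each sibling library. *rbbp4*, a histone-binding subunit of MuvB, went from 270.5 ± 10.8 to 217 ± 33.2 (-0.33, limma adjusted p = 0.268). With the replicate block 5 of the 12 rose (*dyrk1aa*, *dyrk1ab*, *dyrk1b*, *foxm1* and *mybl2a*) and 2 fell (*lin54* and *mybl1*), of which all but *dyrk1aa* were chosen after their values were seen. Over all genes 6.85% rose and 6.87% fell with the block. *lin54*, the DNA-binding subunit of MuvB, went from 53.2 ± 1.2 to 35.3 ± 4.14 (limma adjusted p = 0.0784 without the block and 0.0266 with it).

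G1 and S cyclins and their kinases held 0 called genes of 10, with a median of 0.01. At an unadjusted p under 0.05, 1 was higher and 2 lower, beside 10.2% and 10.7% of all genes. *ccnd1*, of cyclin D1, stood at 314.17, 322.54 and 372.13 normalized CPM in the siblings and 379.2, 477.98 and 557.11 in the mutants (log2 fold change 0.47, SE 0.18, limma adjusted p = 0.180). *ccna2*, of cyclin A2, went from 133 ± 11.6 to 113 ± 15.3 (-0.23, limma adjusted p = 0.435). *cdk4*, the kinase partner of D cyclins (chosen after its values were seen), went from 48.8 ± 3.16 to 30.1 ± 4.42 (-0.69, limma adjusted p = 0.0705). With the block *ccnd1* rose and *cdk4* and *cdk2* fell, while over all genes 6.85% rose and 6.87% fell. Chromatin partners of pocket proteins held 0 called genes of 10, with a median of -0.13. Of these 1 was higher and 3 lower at an unadjusted p under 0.05, beside 10.2% and 10.7% of all genes. *hdac1*, a histone deacetylase gene, went from 574 ± 81.3 to 428 ± 42.9 (limma adjusted p = 0.192) and *dnmt1*, of maintenance DNA methylation, from 242 ± 23.8 to 161 ± 21.9 (limma adjusted p = 0.0963). With the block *dnmt1* fell and the demethylase gene *kdm5a* (chosen after its values were seen) rose.

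Genes that E2F factors are known to activate for G1 and S phase stood lower by small amounts. Of 49 measured 0 passed with limma, 41 had a negative log2 fold change (83.7%, beside 50.8% of all genes) and 13 were lower at an unadjusted p under 0.05 (26.5%, beside 10.7% of all genes). The list median was -0.25, and -0.27, -0.35 and -0.10 in pairs 1, 2 and 3. *pcna*, the DNA polymerase clamp, stood at 673.87, 763.5 and 845.29 normalized CPM in the siblings and 529.56, 547.38 and 802.77 in the mutants, with overlap (log2 fold change -0.30, limma adjusted p = 0.420). *mcm7*, of the replicative helicase, went from 783 ± 147 to 566 ± 79.5 (-0.46, limma adjusted p = 0.219). With the replicate block 9 of the 49 fell (18.4%, beside 6.87% of all genes), *mcm7* among them, and 0 rose. *orc2*, of the origin recognition complex (chosen after its values were seen), had the most negative value, at 16.95, 18.24 and 20.51 in the siblings and 11.44, 7.55 and 11.42 in the mutants (-0.83, limma adjusted p = 0.0689 without the block and 0.0130 with it).

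DREAM target genes of G2 and mitosis stood lower by less. Of 34 measured 0 passed with limma, and the median was -0.14. A negative log2 fold change was found for 25 (73.5%, beside 50.8% of all genes). At an unadjusted p under 0.05, 8 were lower (23.5%, beside 10.7% of all genes). *top2a*, a DNA topoisomerase of dividing cells, stood at 309.96, 333.21 and 352.87 normalized CPM in the siblings and 245.92, 181.49 and 215.72 in the mutants (log2 fold change -0.64, SE 0.16, limma adjusted p = 0.0824). *mki67*, the proliferation marker Ki-67, stood at 434.32, 515.44 and 610.63 and at 354.39, 285.09 and 414.72 (-0.57, SE 0.19, limma adjusted p = 0.153). Neither gene's groups overlapped, as for 26.5% of the list and 27.1% of all genes. Both fell with the replicate block, as did *ttk* and *ube2c* (chosen after their values were seen). These 4 were 11.8% of the list, beside 6.87% of all genes, and 0 of the list rose. A positive log2 fold change was found for 9 of the 34, up to 0.40 for *ccnb2* (also chosen after its values were seen).

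**Figure D4:**
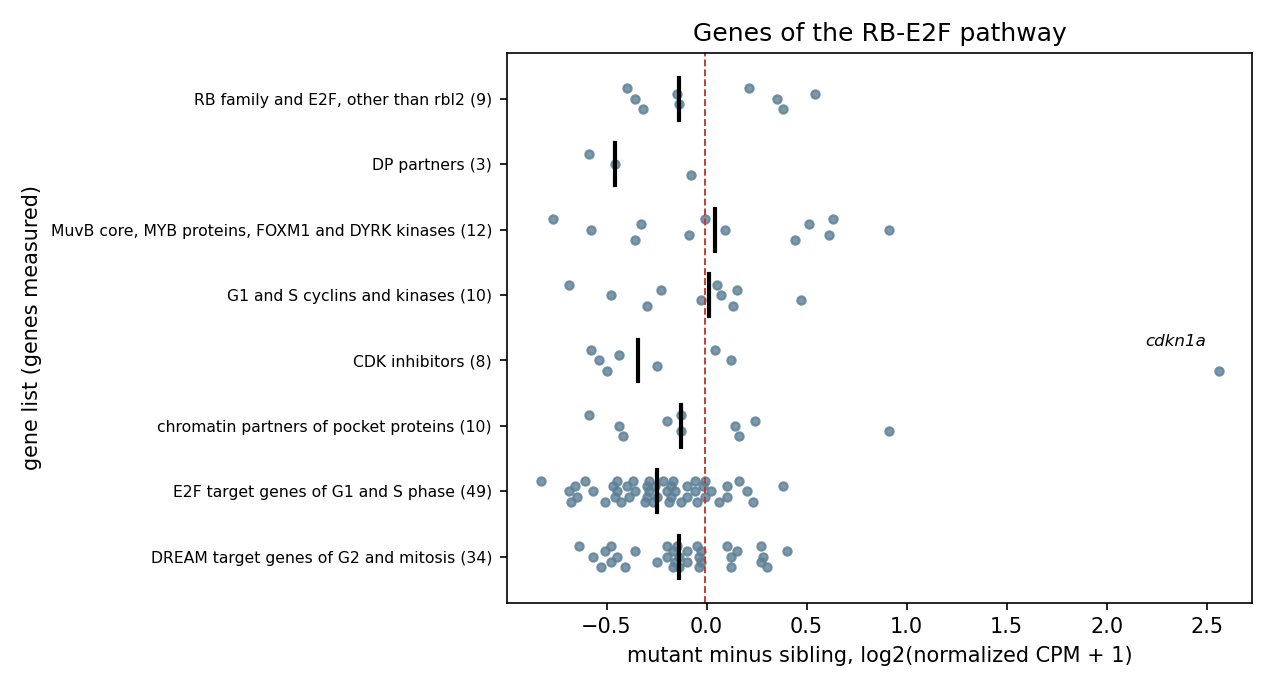
Difference between mutant and sibling in log2(normalized CPM + 1) for each gene of the pathway lists, 1 point per gene, with the list median as a black bar and the median of all genes, -0.01, as a dashed line. *cdkn1a* lies apart at 2.56, and points of the G1 and S phase target list lie mostly left of the dashed line, at a median of -0.25.

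Summed levels of some tissue markers differed between the groups, and most overlapped. The summed level of 7 markers listed for spinal cord and neurons was 1058 to 1097 normalized CPM in siblings and 595 to 861 in mutants. That of 10 skeletal muscle markers was 36740 to 40980 and 23820 to 31490. Every marker of these lists had a negative log2 fold change except *isl1* (0.05) and the muscle gene *smyhc1* (0.35), both named after their values were seen. The first list was not one of neurons alone. Its progenitor and glial genes *sox2*, *sox3* and *gfap* had log2 fold changes of -0.66, -0.96 and -1.05, with no overlap of groups. *neurog1* and *elavl3* had -0.34 and -0.27, with overlap, and *hoxb8a* had -0.23 without overlap (all named after their values were seen). Sums overlapped between groups for 12 forebrain, eye and lens markers (693 to 947 and 408 to 813), 10 tail bud and posterior markers (47.8 to 81.0 and 41.5 to 81.6) and 6 notochord and cartilage markers (647 to 2191 and 1149 to 2274). They also overlapped for 6 endothelial (147 to 158 and 150 to 163), 6 blood (2927 to 7507 and 1959 to 3941), 7 epidermal (15070 to 19120 and 17790 to 23420) and 6 myeloid markers (70.6 to 136 and 52.9 to 94.7). No marker was at 0 in any library, and of the 70 markers 0 passed with limma (1 higher and 14 lower at an unadjusted p under 0.05). Over all genes 10.2% were higher and 10.7% lower at such a p. Under the replicate block 17 of the 70 fell and 0 rose, while over all genes 6.87% were called lower and 6.85% higher. The 17 included 5 muscle markers, 4 of forebrain, eye and lens and 3 of myeloid cells. They also included 3 of the spinal cord and neuron list, *sox2*, *sox3* and *gfap*. With the block at a pseudocount of 0.1, 0 passed. The part of tissue make-up in the values above was not tested.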

How the data were processed

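RNA-seq values of 6 libraries, 3 siblings and 3 mutants, were used as deposited. Groups and replicate numbers come from the sample titles. The authors deposited a normalized signal per gene, rounded to 2 decimals and headed as normalized CPM. Tools listed in the submitters' processing notes are fastp, STAR, featureCounts and edgeR, with the build GRCz11 and no versions. How values were normalized, filtered and counted by strand is not given in the sources used here, so a gene's reads cannot be separated from those of an overlapping or antisense gene.

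Depth was estimated from values under 3, which were whole multiples of 1 step per library within 0.0055. That tolerance exceeds 0.1 of a step, so no test on reads was run. The intervals and p-values rest on limma's moderated variance, which draws each gene's observed spread between libraries toward a value shared by all genes. That spread includes counting error, and the error was not modelled separately. The labels do not say whether libraries came from separate clutches, so p-values may measure technical spread alone.

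log2(value + 1) was fitted over all 21769 genes in R 4.3.3 by limma 3.58.1 (default eBayes, mutant minus sibling, no filter), with Benjamini-Hochberg adjustment and a threshold of 0.05. The procedure was tested on simulated data. Same-number libraries deviated together (r = 0.448, 0.43 and 0.567 for numbers 1, 2 and 3), so the numbers were taken as pairs from the data, and the replicate block was an alternative. Symbols are as deposited, and a symbol with several IDs took the ID with the highest mean. *e2f6* was matched through the Ensembl name table, as was *e2f2*. RefSeq (GRCz12tu) gave gene order only. Sequences and transcript lengths were not used here.

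The members, lists and alternatives were chosen with earlier results of these data known. Genes named are the 10 members, *dhx38*, of each list up to 4 called genes and, with fewer than 2 called, also the 2 of highest mean, and the 5 profiles nearest to *rbl2* among genes with a mean of at least 1 and no placeholder symbol. One of those profiles is not reported here. List genes with no matching symbol (*ccna1*, *arid4b*, *cdc25a*, *birc5b* and others) were not analysed here.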

Additional observations from a re-analysis of the deposited data

How the results depend on the processing

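*rbl2* kept a log2 fold change of 3.17 to 3.82 under the 12 alternative fits. The log2 fold changes of the other 9 genes stayed between -0.56 and 0.67, and each kept its sign. Of their calls 1 changed: with the replicate block the number of called relatives went from 0 to 1 (*e2f7*). In fits leaving out single libraries it stayed at 0. The 370 genes called over the whole table became 205 with a pseudocount of 0.1, 2986 with the replicate block, 169 with both and 41 at an adjusted p under 0.01, and 31 (without sibling replicate 3) to 1731 (without mutant replicate 1) on leaving out single libraries. The share of higher calls dropped with the block, to 1491 higher and 1495 lower. The 1 pathway gene called became 31 with the replicate block, 2 with a variance trend (*cdk4* added), and 0 with a pseudocount of 0.1, with that and the block, and at an adjusted p under 0.01. Leaving out single libraries gave 0 (without any 1 sibling library or mutant replicate 2) to 8 pathway genes (without mutant replicate 1). The cause of these changes was not tested. Of 84 list medians under the alternatives, 82 moved by less than the spread between replicates, and that of chromatin partners moved from -0.13 to -0.19 without sibling replicate 2 and to -0.08 without sibling replicate 3. Tests on recovered reads, with and without the block, were not run. With values rounded to 2 decimals, the tolerance of 0.0055 exceeds 0.1 of the estimated step of 1 read.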

Other observations

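*e2f2*, the activator E2F gene outside the 10 (ENSDARG00000079233, chromosome 17, under a placeholder symbol in the table and added after its values were seen), stood at 32.76, 29.99 and 34.68 normalized CPM in the siblings and 25.57, 20.92 and 35.41 in the mutants. Its groups overlapped, its sign differed between pairs, and its log2 fold change of -0.27 (SE 0.20) did not pass (limma adjusted p = 0.477). Of the 10 genes, *rbl2* alone, itself chosen for its rise, was in the authors' shorter deposited table, as was 1 of the 126 pathway genes. That table held 956 genes, beside 21769 in the larger one, and its criterion is not given in the sources used here.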
